A study of Mus musculus with 4 samples.

Results

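Cathepsins are the proteases of lysosomes and endosomes, and cystatins and stefins are protein inhibitors of the cysteine cathepsins. Genes were taken by the name in the scanner files: Cts and 1 letter or digit, Cst and 1 letter or a number, or any name beginning with Stfa. This rule found 37 genes among 28034 gene names on the array, namely 22 cathepsins, 11 cystatins and 4 genes of the stefin A family. A gene was kept when the scanner marked a probe of it as well above background on the 2 arrays of either group. That left 23 genes (14 cathepsins, 5 cystatins and all 4 of the stefin A family) among 17555 genes tested.

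The study asked which genes depend on Fgf18, a fibroblast growth factor, in skin labelled as telogen, the resting phase of hair follicles. The cKO group consisted of male mice aged 42 days in which Fgf18 was deleted in keratin 5-positive epithelium, the compartment that includes basal epidermis and the outer layers of the hair follicle. The WT group consisted of C57BL/6 males of the same age, and the labels give C57BL/6 as the strain of the cKO mice too. Full-thickness back skin was taken in both groups, with no other treatment named. PolyA RNA of 3 mice was pooled per group, and each pool was put on 2 one-colour Agilent arrays after labelling 200 ng RNA with Cy3. The labels used here do not say which stretch of Fgf18 was deleted or whether the controls carried any of the engineered alleles. They name both groups telogen, yet all 19 measured hair shaft and matrix markers were higher in the cKO pool, as given below. The phase of the follicles was not tested, so the comparison is not shown to be of resting with resting skin.

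Each genotype is therefore 1 RNA pool measured on duplicate arrays. Every standard error (SE), standard deviation and p-value below covers the spread between duplicate arrays only, and each test compares 2 pools, not the genotypes. In whole skin, fewer cells of a type and less RNA per cell cannot be told apart.

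Levels are given as log2 signal minus the 75th percentile of the array, so a level of 0 is a signal at that percentile. Differences are log2 values of cKO minus WT, and levels are compared only within a probe. A gene was called higher or lower by limma at a Benjamini-Hochberg adjusted p under 0.05, over all 17555 genes, and a change of at least 1.5-fold. Rose and fell are used for called genes only.

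The arrays had 62.1% to 69.1% of their spots well above background, and their 75th percentiles lay between 1271.5 and 1453.4 intensity units. Duplicate arrays correlated at r = 0.997 (cKO) and 0.996 (WT) across the genes tested, and arrays of different pools at 0.964 or less. The deleted gene itself, Fgf18, read 1.86 and 1.86 in the cKO pool and 2.18 and 2.21 in WT. The difference of -0.33 (SE 0.025, limma adjusted p = 0.0035) was under the fold threshold, and whether the probe lies in the deleted stretch was not stated. Krt5, the basal keratin whose cells carry the deletion, differed by -0.09 (adjusted p = 0.23). Krt14, another of the epidermal markers read below, differed by 0.31 (SE 0.037, limma adjusted p = 0.0078), under the fold threshold.

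Most cysteine cathepsins share the fold of papain. They are made as inactive precursors, matured in acid compartments, and degrade proteins delivered to lysosomes; some also act outside the cell or in antigen presentation. Cystatins and stefins bind tightly in the active site of these enzymes: stefins mainly in the cytosol, secreted cystatins outside the cell. In skin the balance of cystatin M/E with cathepsin L, cathepsin V and legumain is known to control the crosslinking of the cornified layer, and loss of cathepsin L in mice disturbs the hair cycle.

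Of the 23 kept genes, 1 was called higher (the aspartic protease gene Ctse) and 4 were called lower (Csta1, Stfa1, Stfa2 and Stfa3, all stefin A genes). Over all genes the share called was 5.67% higher and 4.82% lower. The other 18 were not called. The median difference was -0.17 over the 23 genes, against -0.05 over all genes tested, and the median absolute difference was 0.24 against 0.19. With quantile normalization the median of the 23 was 0.0025. By subfamily the median was -0.09 for the cathepsins, -0.10 for the 5 cystatins and -0.74 for the stefin A family.

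**Figure D1:**
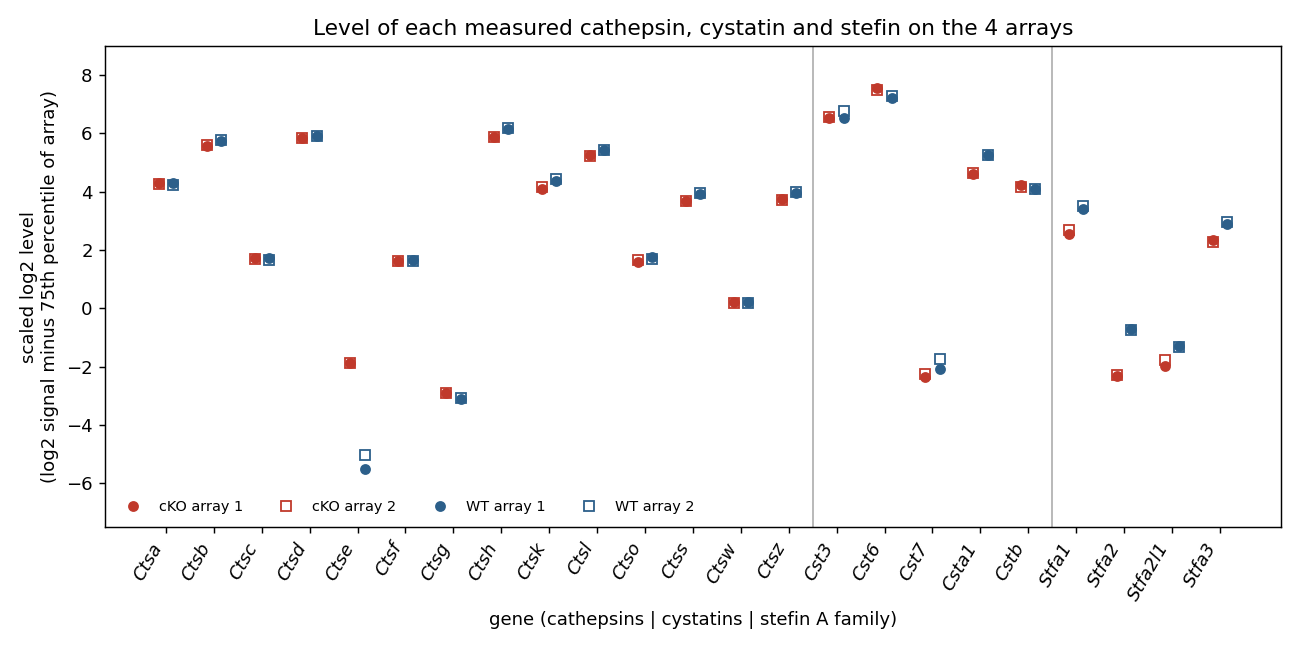
Scaled log2 level (log2 signal minus the 75th percentile of the array, vertical axis) of the 23 kept genes on each of the 4 arrays; red marks are cKO and blue marks WT, with a filled circle for array 1 and an open square for array 2. Duplicate marks nearly coincide for most genes, Ctse is much higher on the cKO arrays, and the stefin A genes lie lower on both cKO arrays than on both WT arrays.

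**Figure D2:**
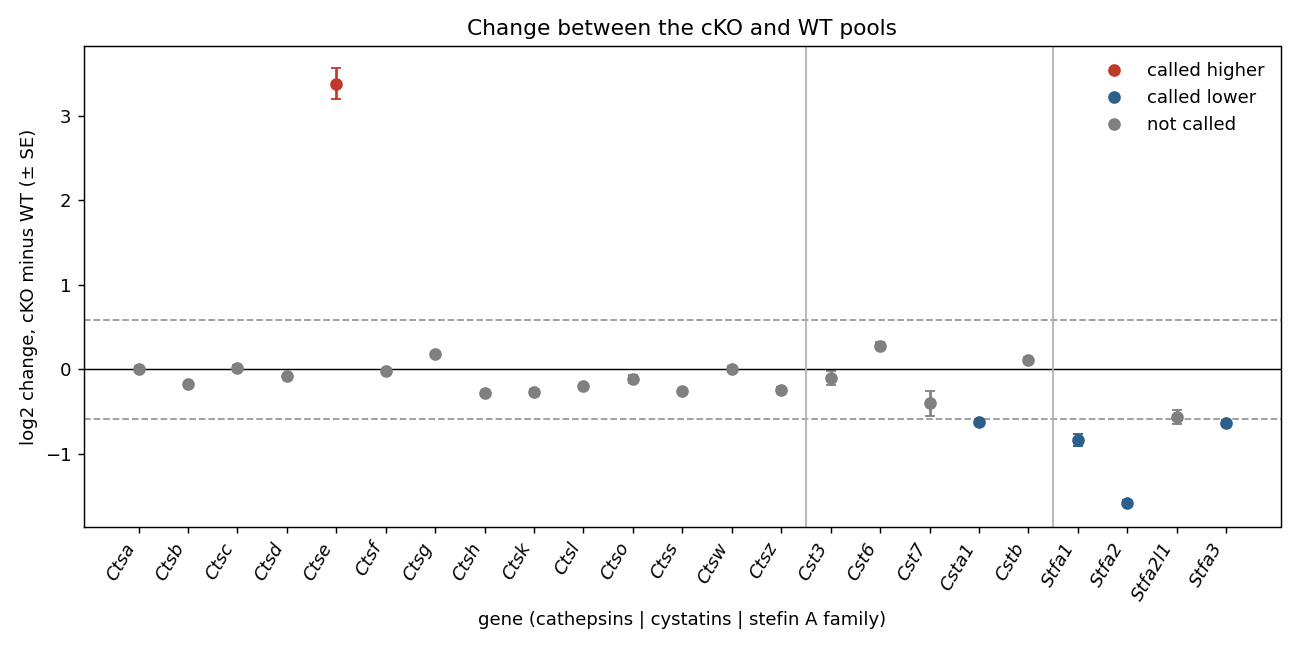
Difference between the cKO and WT pools (log2, vertical axis; bars are ± SE from limma) for the same genes, with dashed lines at a 1.5-fold change. Ctse stands at 3.38, the 4 called stefin A genes between -1.58 and -0.63, and all other genes lie between the dashed lines.

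The members that fell were 4 stefin A genes. Stefin A genes of the mouse encode small cytosolic inhibitors of cysteine cathepsins and are known from keratinocytes and from blood-forming cells. In the scanner files (mm9 coordinates) the probes of Csta1, Stfa2l1, Stfa1, Stfa2 and Stfa3 lie in that order on chromosome 16, from chr16:36122294 to chr16:36450752, a stretch of 328 kb. All 5 read lower on both cKO arrays than on either WT array, 4 of them were called lower, and their median difference was -0.63. Non-overlap is common here: the arrays of the pools did not overlap for 81.8% of all genes tested, and for 18 of the 23 members.

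Because these genes are close copies, the 60-base probes matter to what each value measures. The 5 probe sequences printed next are those of the file, read in the sense of the transcript. In the first pair, Stfa1 and Stfa3, the capitals mark the bases at which the probes differ when laid against each other. The others are in lower case throughout, and for Csta1 the dimmer of its 2 probes is shown.
Stfa1: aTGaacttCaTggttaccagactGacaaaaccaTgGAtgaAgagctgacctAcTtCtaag
Stfa3: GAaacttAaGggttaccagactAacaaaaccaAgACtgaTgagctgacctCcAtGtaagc
Stfa2: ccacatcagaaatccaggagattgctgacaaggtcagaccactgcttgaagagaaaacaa
Stfa2l1: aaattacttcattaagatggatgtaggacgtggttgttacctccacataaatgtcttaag
Csta1: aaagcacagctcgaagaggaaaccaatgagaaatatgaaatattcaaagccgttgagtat

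The Stfa1 and Stfa3 probes were identical at 47 of 59 compared bases (79.7%) and differed at 12. The brighter Csta1 probe shared 24 of the 25 bases over which it overlaps the Stfa1 probe (96.0%). Matched to RefSeq names, the accessions that the file lists for a probe gave 1 gene for the Stfa2 and Stfa3 probes and for the dimmer Csta1 probe. They gave a pair of genes for the other 3 probes: Csta1 and Cstdc5 for the brighter Csta1 probe, Stfa1 and Cstdc5 for the Stfa1 probe, and Stfa2 and Stfa2l1 for the Stfa2l1 probe. The values of those 3 probes are therefore uncertain as to gene. The mm9 interval of the Stfa2 probe spans 3078 bases and that of the Stfa2l1 probe 1759, more than a probe's length.

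Stfa2 showed the largest decrease among the members. Its probe (chr16:36405290-36408367) read -2.32 and -2.28 in the cKO pool, against -0.72 and -0.73 in WT. Both cKO arrays lay well under both WT arrays, and the duplicates differed by 0.05 and 0.02. The difference was -1.58 (SE 0.029, limma adjusted p = 0.00057), a 2.98-fold decrease. Of all genes tested, 0.313% had a value as low or lower.

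Stfa1 (chr16:36285323-36285382) read 2.54 and 2.69 in the cKO pool and 3.41 and 3.50 in WT. It fell 1.79-fold, by 0.84 on the log2 scale (SE 0.071, adjusted p = 0.0042). Stfa1 and Stfa2 kept their call under all 16 alternatives that refitted or re-called the genes.

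Stfa3 (chr16:36450693-36450752) read 2.34 and 2.27 on the cKO arrays against 2.91 and 2.97 on the WT arrays. Both duplicates were close and the pools did not overlap. The gene fell 1.55-fold (-0.63, SE 0.039, limma adjusted p = 0.0026), just past the fold threshold. It lost the call at -0.58 with normexp and quantile normalization and at -0.56 with quantile normalization alone.

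Csta1, written Csta in the file, is the gene closest in name to human cystatin A, an abundant inhibitor of the upper epidermis. Its brighter probe (chr16:36122294-36122353) read 4.61 and 4.66 in the cKO pool and 5.24 and 5.27 in WT. It fell 1.54-fold (-0.63, SE 0.030, limma adjusted p = 0.0019). The second Csta1 probe (chr16:36125099-36125158), whose listed accessions name Csta1 alone, differed by -0.48 (SE 0.054, adjusted p = 0.0090 over probes), short of the fold threshold. Over all kept probes limma called 4.92% higher and 4.8% lower. The call was also lost with the mean of both probes (-0.55) and with quantile normalization, with normexp (-0.46) or without (-0.47).

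Stfa2l1 (chr16:36160118-36161876) read -1.97 and -1.76 in the cKO pool and -1.29 and -1.32 in WT. The cKO duplicates differed by 0.21, the widest gap of the 5 genes. The difference of -0.56 (SE 0.084, adjusted p = 0.013) corresponds to 1.48-fold and was not called. Without cKO replicate 2 it was -0.67 and called lower.

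The same stretch of chromosome 16 holds 7 further probes of cystatin-like or unnamed transcripts that the naming rule does not take. They were looked at after the members' values had been seen. Of these, 3 were above background in a group, and 2 of the 3 were called lower: Csta2 at -0.65 (SE 0.093, limma adjusted p = 0.012) and Cstdc5 at -0.64 (SE 0.032, adjusted p = 0.0019). The share called lower over all genes was 4.82%. Cstdc5 is also listed for the brighter Csta1 probe and for the Stfa1 probe, so these readings may not be of separate genes. Csta2 was not called without cKO replicate 1 (-0.57) or without WT replicate 2 (-0.56), nor with no filter on dim probes (adjusted p = 0.053). Cstdc5 was not called with quantile normalization, with normexp (-0.50) or without (-0.51). The third, an unnamed transcript, differed by -0.54 (adjusted p = 0.0053) and was not called.

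**Figure D3:**
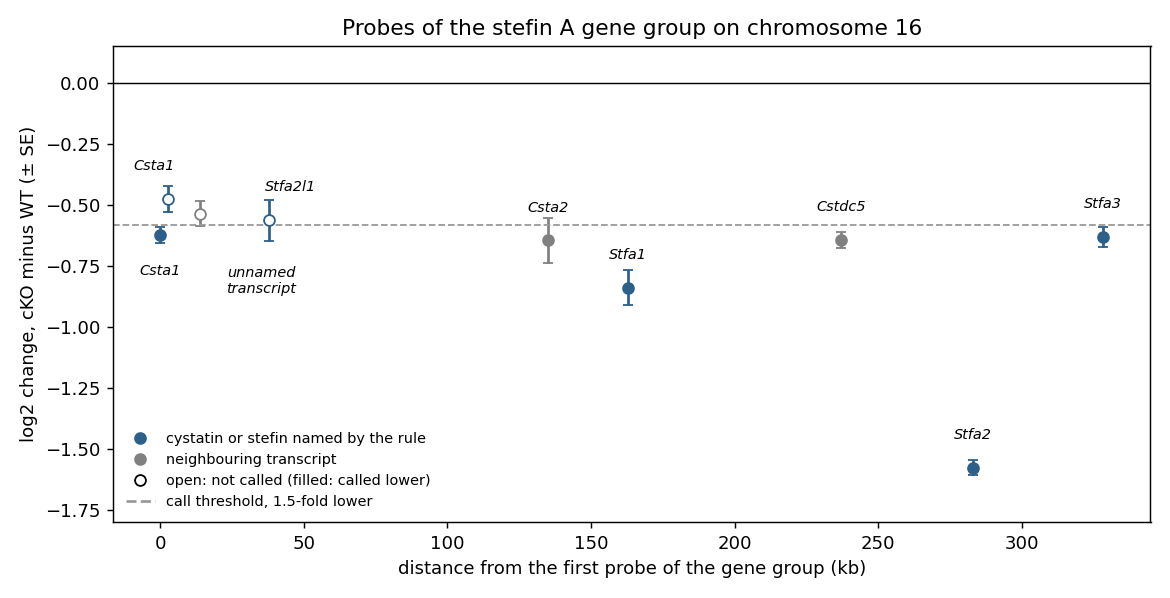
Difference between the pools (log2, vertical axis; bars are ± SE) for each kept probe of the stefin A gene group, plotted against its distance in kb from the first Csta1 probe; blue marks are genes taken by the naming rule, grey marks their neighbours, filled marks were called lower, and the dashed line is a 1.5-fold decrease. All 9 probes lie under 0, and Stfa2 at -1.58 stands apart from the other 8, which lie between -0.84 and -0.48. The Stfa1, Stfa2l1 and brighter Csta1 probes each list a pair of genes, so the marks may not all be of separate genes.

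Because the probes taken for 4 of these 5 neighbouring genes were called lower, the promoters of the genes were compared. Among those probes, the ones of Csta1 and Stfa1 are uncertain as to gene, as given above. RefSeq promoter sequences (assembly GRCm38.p6, 250 bases before to 50 after the start) were held for 17 of the 23 kept genes, including all 5 stefin A genes. The 100 bases before each start are printed in the sense of the gene, and the capitals mark the letters ACCTTTAAAACCC.
Stfa2, chr16:36408364-36408463, minus strand: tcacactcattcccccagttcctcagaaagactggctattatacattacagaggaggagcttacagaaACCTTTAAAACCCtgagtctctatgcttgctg
Stfa2l1, chr16:36156711-36156810, plus strand: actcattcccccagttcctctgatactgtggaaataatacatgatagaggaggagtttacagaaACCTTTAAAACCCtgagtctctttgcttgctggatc
Stfa1, chr16:36277048-36277147, plus strand: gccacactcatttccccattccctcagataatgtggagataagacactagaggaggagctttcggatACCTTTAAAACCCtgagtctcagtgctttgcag
Stfa3, chr16:36455393-36455492, minus strand: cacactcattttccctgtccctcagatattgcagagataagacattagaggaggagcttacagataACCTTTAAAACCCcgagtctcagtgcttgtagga
Csta1, chr16:36131190-36131289, minus strand: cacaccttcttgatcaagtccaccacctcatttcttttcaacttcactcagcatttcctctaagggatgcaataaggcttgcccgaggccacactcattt

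The 4 Stfa promoters were alike over the 250 bases before the start, with pairwise identities, gaps counted as differences, of 80.4% to 89.4%, the highest between Stfa2 and Stfa2l1. Csta1 shared 37.7% to 41.5% with them. Each window was set by the annotated start of its gene. The bases gccacactcattt close the Csta1 stretch printed above and open that of Stfa1. Matching bases can therefore lie at different distances from the start, and the low Csta1 identities do not show that its promoter is unlike the others. The letters ACCTTTAAAACCC are the longest run around TTTAAA that the 4 Stfa promoters share, so their presence in those 4 is by construction. They begin 32 to 36 bases before the start. Searched on both strands of the 300-base windows, they stood in 9 of 32851 RefSeq promoters (0.027%), these 4 included; the other 5 belong to Csta3, Cstdc3, Cstdc4, Cstdc5 and Gm7260. The shorter TTTAAA, which lies within them, was picked after reading the promoters and found in all 5 stefin A promoters and in 13.162% of all promoters. These matches describe the letters only, and their part in the array values was not tested. The most similar pair, Stfa2 and Stfa2l1, differed by -1.58 and -0.56 between the pools. Both genes are listed for the Stfa2l1 probe, so its value is uncertain as to gene. The difference between those 2 values was not tested.

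Markers of other cell types and tissues are given as values, and their part in the stefin result was not tested. Stefin A genes are also known from neutrophils, so a list of 14 neutrophil markers was read. Of these, 7 were not well above background in either group (Ngp, Camp, Ltf, Elane, Cxcr2, Mmp8 and Retnlg), 1 had no probe, and 6 were tested. S100a9 and Prtn3 fell and Mpo rose. The summed linear level of the 6, in multiples of the 75th percentile, was 19.6 on both cKO arrays and 23.1 to 23.2 on the WT arrays. For 16 epidermal markers it was 1212 to 1235 against 1353 to 1443, with a median difference of -0.11. Of these, 1 rose (Krt2) and limma called 0 lower, with 4 higher and 7 lower at an unadjusted p under 0.05. Over all 17555 genes that unadjusted p gave 4429 higher and 6569 lower. Negative medians were common among the marker lists (mast cell -0.47, fibroblast -0.13), beside -0.05 over all genes. Hair shaft and inner root sheath markers went the other way, with medians of 6.52 and 6.49. Markers of 3 other tissues in the sample are given next. By adjusted p alone, 33.6% of all genes were lower and 22.2% higher. With the fold threshold, 4.82% of all genes were called lower and 5.67% higher. Of 8 sebaceous gland markers Fasn and Soat1 fell and 7 were lower by adjusted p alone, with a median of -0.46 and a summed level of 147 to 150 against 225 to 244. Of 12 skeletal muscle markers 4 fell (Ckm, Actn3, Casq1 and Neb) and all 12 were lower by adjusted p alone, with a median of -0.48 and a summed level of 1218 to 1220 against 1641 to 1736. Of 10 adipocyte markers 4 fell (Pparg, Retn, Slc2a4 and Lep), and by adjusted p alone 6 were lower and 1 higher. The median of the 10 was -0.26 and their summed level 462 to 469 against 477 to 498.

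The secreted cystatins and stefin B were not called in either direction. Cst6, which encodes cystatin M/E, the secreted inhibitor of the cornified layer, read 7.54 and 7.50 in the cKO pool and 7.20 and 7.28 in WT (chr19:5347982-5348041). Both cKO arrays lay above both WT arrays, but the difference of 0.28 (SE 0.040, adjusted p = 0.012) was 1.22-fold and not called. A second Cst6 probe was too dim to be kept.

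Cstb, which encodes stefin B, the broadly expressed cytosolic inhibitor, read 4.24 and 4.18 in the cKO pool and 4.09 and 4.10 in WT. Its difference was 0.11 (SE 0.034, limma adjusted p = 0.063), and its second probe gave 0.12. With quantile normalization it was 0.25 (adjusted p = 0.012), and with normexp before it 0.24 (adjusted p = 0.013), still under the fold threshold. Cst3, which encodes cystatin C, the major extracellular cystatin, read 6.54 and 6.55 against 6.54 and 6.75, so the pools overlapped; the difference was -0.10 (SE 0.084, adjusted p = 0.36). Cst7, which encodes cystatin F of immune cells, read -2.36 and -2.27 against -2.09 and -1.73, a difference of -0.40 (SE 0.14, adjusted p = 0.093). The WT duplicates of Cst7 differed by 0.36, so this difference was little more than the spread within 1 pool.

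Among the proteases, Ctse alone was called. It encodes cathepsin E, an aspartic protease of endosomes that is not a target of cystatins. Its probe (chr1:133571935-133571994) read -1.89 and -1.87 in the cKO pool and -5.50 and -5.02 in WT, or raw signals of 379 and 398 against 28.1 and 40.6. The probe was well above background on both cKO arrays and on neither WT array. It entered the test only through the group in which it was high, and its change is a bound. Ctse rose at least 9.49-fold under the main scaling (limma difference 3.38, SE 0.19, adjusted p = 0.0022). With normexp and quantile normalization the log2 difference was 2.13, a smaller change, so the bound holds for the main scaling only. For this bound each WT array contributed its detection floor, the dimmest signal marked as well above background there, or the signal of the probe where that was higher.

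The WT duplicates of Ctse differed by 0.48, and the nearest cKO and WT arrays by 3.13. Over the alternatives that tested it, the fitted difference ran from 2.13, with normexp and quantile normalization, to 3.62 without WT replicate 2, and it was called in each. With a filter that asked for signal on all 4 arrays it was not tested. Hair markers moved with it: of 19 measured hair shaft and matrix markers all 19 rose, with a median difference of 6.52. Their summed linear level was 422 to 430 on the cKO arrays and 2.08 to 2.10 on the WT arrays. At least Dsg4 among them was above background on neither WT array and entered only through the cKO arrays. The median takes fitted differences as they stand, so its size is uncertain where WT signals were at background. Of 9 inner root sheath markers 8 rose (229 to 233 against 4.77 to 4.80). Their part in the Ctse result was not tested.

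Ctsb, Ctsh, Ctsk, Ctsl, Ctss and Ctsz, 6 of the papain-like cathepsins, each read lower on both cKO arrays, by less than the fold threshold. Ctsc, Ctsf, Ctso and Ctsw are papain-like too, and differed by 0.01, -0.02, -0.12 and 0.0062. Limma called 0 of the 6, while all 6 were lower at an adjusted p under 0.05 (and at an unadjusted p under 0.05) with no fold threshold. The same 6 are all the cathepsins, of 14, that were lower by that adjusted p, and 2 others were higher. The group thus matches its own result, and its count and median are no separate result. Over all genes that looser rule called 33.6% lower and 22.2% higher, 55.8% in either direction. Over the 23 members it called 11 lower and 3 higher. The median difference of the 6 was -0.25. These calls by p alone depended on the processing: 0 of the 6 passed with normexp and quantile normalization, 1 with quantile normalization, and 3 with no filter on dim probes. Among single arrays left out, 3 passed without cKO replicate 2 and 4 without cKO replicate 1. The median of the 6 was -0.07 with normexp and quantile normalization and -0.08 with quantile normalization.

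Ctsh encodes an aminopeptidase of lysosomes and had the lowest value of the 14 cathepsins. It read 5.88 and 5.88 in the cKO pool and 6.14 and 6.19 in WT, a difference of -0.28 (SE 0.030, limma adjusted p = 0.0065). Ctsk encodes the collagen-degrading cathepsin K, known from osteoclasts and also made by fibroblasts. It read 4.10 and 4.15 against 4.36 and 4.42, a difference of -0.26 (SE 0.037, adjusted p = 0.011). Ctss encodes cathepsin S, which trims the invariant chain in antigen-presenting cells. It read 3.68 and 3.67 against 3.91 and 3.96, a difference of -0.26 (SE 0.028, adjusted p = 0.0067).

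Ctsz encodes a carboxypeptidase of lysosomes. It read 3.75 and 3.72 in the cKO pool and 3.95 and 3.99 in WT (-0.24, limma adjusted p = 0.0083), and its second probe gave -0.17. Ctsl encodes cathepsin L, the target of cystatin M/E in the epidermis. It read 5.25 and 5.22 against 5.44 and 5.42 (-0.20, adjusted p = 0.0099). Ctsb encodes cathepsin B, an abundant lysosomal endopeptidase and carboxypeptidase. It read 5.58 and 5.60 against 5.75 and 5.77 (-0.17, adjusted p = 0.012), and its second probe gave -0.10. With quantile normalization Ctsl and Ctsb were at 0.0025 and 0.036, so the direction of these small differences was not the same under each scaling. With normexp before it, Ctsb was at 0.0028. The other 4 kept their sign with quantile normalization but shrank, Ctsh to -0.06, Ctsk to -0.12, Ctss to -0.11 and Ctsz to -0.09.

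**Figure D4:**
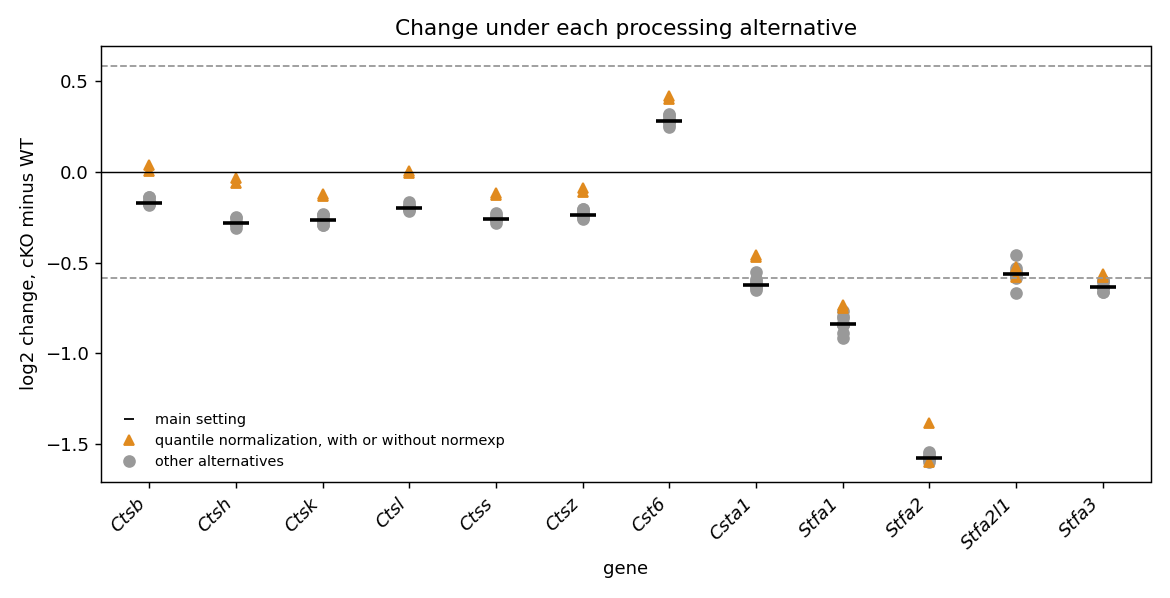
Difference between the pools (log2, vertical axis) for 12 genes under each processing alternative; the black bar is the main setting, orange triangles are quantile normalization with or without normexp, grey circles are all other alternatives, and dashed lines mark a 1.5-fold change. The stefin A genes lie under 0 throughout, while the quantile values of Ctsb and Ctsl reach or cross 0.

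The remaining cysteine cathepsins showed differences close to 0. Ctsc, the activator of serine proteases in granules of immune cells, differed by 0.01, Ctsf by -0.02 and Ctso by -0.12. Ctsw, a cathepsin of cytotoxic lymphocytes, differed by 0.0062. Their adjusted p-values in limma ran from 0.12 for Ctso to 0.88 for Ctsw, and the arrays of the pools overlapped for Ctsc, Ctsf and Ctsw.

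The other proteases named cathepsin are of different classes. Ctsd encodes the lysosomal aspartic protease cathepsin D and differed by -0.07 (limma adjusted p = 0.080), with its second probe at 0.06. Ctsa encodes the serine carboxypeptidase that protects lysosomal sialidase and galactosidase; it differed by 0.01, with its other probes at 0.10 and 0.06. Ctsg encodes a serine protease of neutrophil and mast cell granules. It read -2.90 and -2.91 in the cKO pool and -3.09 and -3.08 in WT, a difference of 0.18 (SE 0.023, adjusted p = 0.0094) that was not called.

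For the immune cells that carry several of these enzymes, 20 macrophage and dendritic cell markers had a median difference of -0.08, and limma called 0 in either direction (4 higher and 8 lower at an unadjusted p under 0.05). Their summed level was 305 to 312 on the cKO arrays and 307 on both WT arrays. Among all 17555 genes, 4429 were higher and 6569 lower at that unadjusted p, and limma called 4.82% lower and 5.67% higher. Of 7 mast cell markers Hdc rose and Cma1 and Fcer1a fell, with a summed level of 24.6 to 24.7 against 33.9 to 35.2. Of 11 T and NK cell markers Cd4 rose and none fell (1 higher and 5 lower at an unadjusted p under 0.05), at 26.3 to 26.5 against 27.6 to 28.1. Fibroblast markers summed to 806 to 808 against 867 to 948. The part of these cells in the cathepsin values was not tested.

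The 14 genes that were not kept are Cts3, Cts6, Cts7, Cts8, Ctsj, Ctsm, Ctsq and Ctsr, whose probes all lie on chromosome 13 and which include cathepsins known from the placenta, and Cst8, Cst9, Cst10, Cst11, Cst12 and Cst13 on chromosome 2, several of which are known from the testis and epididymis. None of their probes passed the background criterion on the 2 arrays of a group.

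Genes around this system were read from 4 lists, described here by counts. For comparison, limma called 4.82% of all genes lower and 5.67% higher. Of 39 measured genes of lysosomal biogenesis, enzymes and membranes, limma called 0 in either direction. At an unadjusted p under 0.05, 5 were higher and 24 lower, beside 4429 higher and 6569 lower of all 17555 genes. By the adjusted p alone 21 of the 39 (53.8%) were lower, beside 33.6% of all genes. That count was 11 without cKO replicate 2 and 11 with no filter on dim probes, where the share of all genes lower was 20.2% and 11.1%. The median was -0.20, and -0.12 with quantile normalization. The brightest, Lgals3 (galectin 3), differed by -0.17, but by 0.04 with quantile normalization. The next, Psap, the precursor of the saposins that help degrade sphingolipids, differed by 0.19, and by 0.36 with quantile normalization.

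Of 13 other cysteine proteases of the papain, calpain and legumain families, only Capn8, a calpain known from the stomach, was called. It rose at least 4.09-fold under the main scaling (limma adjusted p = 0.00059), a bound because its probe was at background on the WT arrays. Capn8 was kept through the cKO arrays alone, so its p-value rests on background signals in WT. With normexp and quantile normalization its log2 difference was 1.78, a smaller change than the bound. Lgmn, the legumain that cystatin M/E also inhibits, differed by -0.20 (adjusted p = 0.012) and was not called. The median of the 13 genes was -0.04.

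Of 11 measured inhibitors of cysteine proteases outside the cystatin names, 4 fell and 1 rose, with a median of -0.25. Among all genes 4.82% were called lower and 5.67% higher. Ctla2a and Ctla2b resemble the propeptide of cathepsins and inhibit cathepsin L-like enzymes. Ctla2a read 3.18 and 3.16 in the cKO pool and 4.12 and 4.06 in WT, and fell 1.90-fold (-0.93, SE 0.033, limma adjusted p = 0.0013). Ctla2b fell 1.83-fold (-0.87, adjusted p = 0.0028), but was at -0.27 and not called when its probes were averaged. Serpinb3a, a serpin that inhibits cysteine proteases, was called lower (adjusted p = 0.0015), but its probe was above background on only 1 of the 2 cKO arrays, so the size of its change is uncertain. It was kept through the WT arrays and not tested under the filter on all 4 arrays. Fetub, of the fetuin branch of the cystatin superfamily, fell 1.55-fold (adjusted p = 0.0022). With normexp and quantile normalization Serpinb3a was at -0.25 and Fetub at -0.38, and neither was called. Birc5 (survivin), an inhibitor of apoptosis that acts in cell division, rose 1.89-fold (0.92, adjusted p = 0.00083).

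Of 18 measured genes of the cornification pathway in which cystatin M/E acts, which include the members Cst6 and Ctsl, 3 rose and 0 fell in limma (8 higher and 9 lower at an unadjusted p under 0.05). All 17555 genes gave 4429 higher and 6569 lower at that unadjusted p. The median of the 18 was -0.05, and 0.05 with quantile normalization, with or without normexp. Sprr1a, a cornified envelope precursor, rose 3.64-fold (1.87, adjusted p = 0.00036). Tgm3, the transglutaminase of epidermis and hair follicle, rose 2.43-fold (1.28, adjusted p = 0.00079). Dsg4, a desmosomal cadherin of the hair shaft, rose at least 4.20-fold under the main scaling (adjusted p = 0.0091). This is a bound because its probe was above background on neither WT array. It was kept through the cKO arrays alone, so its p-value rests on background signals in WT. With normexp and quantile normalization the log2 difference was 1.45, a smaller change than the bound. Dsg4 missed the threshold without cKO replicate 1 (adjusted p = 0.057) and without cKO replicate 2 (adjusted p = 0.058). Dsg4 and Tgm3 also stand in the hair shaft and inner root sheath lists above.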

How the data were processed

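Per the file headers, spots were read by Agilent's Feature Extraction software (10.7.3.1), and the deposited processed signal is a background-subtracted intensity. The authors' deposited values are a linear ratio, namely this signal divided by 1 number per array (medians 0.101, 0.0983, 0.0987 and 0.101), not centred by gene. They were an alternative here. All arrays shared 1 slide and 1 scan time. Control spots were left out, outlier spots were set to missing, and spots of a probe were averaged. The log2 of the signal minus the 75th percentile of the array was tested with limma 3.58.1 in R 4.3.3, two-sided and without covariates. Each gene took the values of whichever kept probe was brightest on average. Names came from a RefSeq table: 26690 probes matched by accession, 5189 by symbol and 952 by older symbol, and 8343 kept the file's name. Probe coordinates are the files' mm9; no gene models of that build were used, so exon or UTR is not stated. Members and lists were chosen with earlier results of these data known. Every kept member is named, with the called genes of each list (at most 4 by size, or the 2 brightest where none was called). Csta2, Cstdc5, Fetub, Lgmn, Krt14 and the called cell markers were named after their values were seen. A self-test on simulated data was run. Sequences were compared with Biopython 1.88 and figures drawn with matplotlib 3.10.9. Array number limits the precision.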

Additional observations from a re-analysis of the deposited data

How the results depend on the processing

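With 17 alternatives tried, Stfa1 ran from -0.92 to -0.73 and Stfa2 from -1.60 to -1.38. With normexp and quantile normalization, or quantile normalization alone, 2 members were called lower (2 of the cystatins and stefins), and over all genes 483 were lower with the former. With a filter on all 4 arrays, 0 members and 0 cathepsins were called higher, as Ctse was not tested. By adjusted p alone 3 members were higher and 11 lower, of which 2 and 6 were cathepsins and 1 higher was a cystatin, and over all genes 3890 and 5907. Leaving out 1 array gave 925 to 1027 genes higher and 784 to 915 lower. Same-numbered arrays did not deviate together (r = -0.04), and a replicate block gave 986 genes higher and 829 lower with the members' counts the same. Values that changed sign were Ctsb 0.0028, Ctsd 0.094, Ctsf 0.024, Cst3 0.13 and Krt5 0.0018 with normexp and quantile normalization; Ctsb 0.036, Ctsd 0.14, Ctsf 0.014, Ctsl 0.0025, Cst3 0.12 and Lgals3 0.038 with quantile normalization; and Ctsf 0.016 with scaling on detected probes. Leaving out 1 array, Ctsa ran from -0.021 to 0.043, Ctsc from -0.021 to 0.048, Ctsw from -0.014 to 0.027 and Cst3 from -0.21 to 0.0035. Apart from the stricter filter, the cause was not tested. With 1 pool per genotype, the spread between mice is not measured, and probes near background carry only bounds.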
